A study of Homo sapiens with 6 samples.

Results

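The genes described here encode serum response factor (SRF), its cofactors MRTFA and MRTFB, immediate early genes that SRF is known to drive, and proteins that decorate, bundle or cross-link actin filaments. They form a fixed list of 40 symbols, each of which named 1 row of the 60612 gene rows in the deposited table. The rule that picks rows uses symbols, not values, but the symbols were chosen with earlier results of these data known. RNA was sequenced from 6 libraries of SNU-368, an established human liver cancer line, in a study whose title links loss of TFAM to nuclear actin assembly and metastasis. In 3 libraries the cells carried a short hairpin RNA against TFAM (shTFAM), and in 3 they carried a control hairpin (shCtrl). No other modification is named in the labels, and the series text counts the 6 as cell lines. Neither the hairpin sequence and vector nor the time after transduction and the clonality are known from the labels. Whether the 3 replicates of a group came from different cultures is not stated either, so the p-values speak only for the variation among these samples, and that variation may be technical.

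SRF binds a short A and T rich element, the CArG box, in the promoters of cytoskeletal and immediate early genes. Its partners set which targets respond. MRTF proteins bind actin monomers and are held out of action by them, and they join SRF when monomers are used up by filament assembly. Ternary complex factors, which are ETS proteins switched on by growth factor signalling, join SRF at genes such as EGR1 and FOS. In liver tumours and in stellate cells the MRTF branch is known for its part in contractile and migratory gene programmes.

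Promoters of 4 members with a match to the CArG box are shown because they stand for the roles in the list: the regulator itself, an immediate early gene, a filament-decorating calponin and the most abundant cross-linker by counts. Each runs from 250 bases before to 50 bases after an annotated transcription start, in the direction of the gene, from RefSeq on build GRCh38.p14. Capitals mark each exact CArG box, a pattern that reads the same on both strands. The SRF promoter lies at chr6:43171019-43171318, that of EGR1 at chr5:138465229-138465528, both on the plus strand. Those of CNN2 and FLNA lie at chr19:1026358-1026657 on the plus strand and chrX:154374585-154374884 on the minus strand.
SRF: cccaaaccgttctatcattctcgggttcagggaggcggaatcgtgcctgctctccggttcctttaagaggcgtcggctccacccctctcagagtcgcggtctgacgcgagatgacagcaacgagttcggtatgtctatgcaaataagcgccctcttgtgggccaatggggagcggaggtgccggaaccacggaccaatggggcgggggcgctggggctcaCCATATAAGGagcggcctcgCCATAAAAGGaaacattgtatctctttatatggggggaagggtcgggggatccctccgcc
EGR1: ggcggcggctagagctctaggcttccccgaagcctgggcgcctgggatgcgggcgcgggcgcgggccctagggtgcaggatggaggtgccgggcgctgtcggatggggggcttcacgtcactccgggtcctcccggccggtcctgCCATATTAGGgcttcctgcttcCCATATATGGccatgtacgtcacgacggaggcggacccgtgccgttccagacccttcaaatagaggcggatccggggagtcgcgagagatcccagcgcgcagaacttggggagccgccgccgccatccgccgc
CNN2: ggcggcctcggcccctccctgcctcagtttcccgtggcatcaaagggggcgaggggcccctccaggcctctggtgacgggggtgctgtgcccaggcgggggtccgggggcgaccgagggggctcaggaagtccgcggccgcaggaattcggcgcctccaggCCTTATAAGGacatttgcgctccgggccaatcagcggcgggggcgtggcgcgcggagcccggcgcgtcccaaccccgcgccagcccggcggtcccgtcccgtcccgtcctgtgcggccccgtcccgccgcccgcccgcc
FLNA: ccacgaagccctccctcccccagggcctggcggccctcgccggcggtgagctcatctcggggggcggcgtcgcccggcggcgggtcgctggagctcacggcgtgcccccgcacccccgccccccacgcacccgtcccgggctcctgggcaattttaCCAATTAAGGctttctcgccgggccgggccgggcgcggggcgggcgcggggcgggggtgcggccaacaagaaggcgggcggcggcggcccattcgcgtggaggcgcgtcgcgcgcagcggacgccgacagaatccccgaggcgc
SRF and EGR1 each held 2 boxes in this window, and CNN2 and FLNA 1 each.

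The libraries held 46263488 to 61058282 counts in shTFAM and 43286024 to 50910536 in shCtrl. A floor of 3 counts came to 0.0519 to 0.067 CPM (here counts over library size, rescaled with TMM factors) in shTFAM and 0.0585 to 0.0677 CPM in shCtrl, for counting error only. TFAM had 63.7, 65.0 and 56.7 CPM in shTFAM 1 to 3, against 82.2, 76.2 and 89.6 CPM in shCtrl 1 to 3. All 3 shTFAM libraries were lower, with a log2 fold change of -0.42 (SE 0.107, edgeR adjusted p 0.0377), and the call ended without any 1 library, with edgeR adjusted p from 0.0676 to 0.0948. The log2 fold change of TFAM then ran from -0.48 to -0.36. On a principal component analysis the first component (54.6% of variance) separated the groups, and shCtrl 3 stood at 31.2 on the second (15.3%), where the other libraries ran from -20.6 to 7.87. Rows on mitochondrial DNA took 7.91 to 10.7% of counts in shTFAM and 10.1 to 14.2% in shCtrl. The part of this shift in the results was not tested beyond a rescaling to counts outside mitochondrial DNA, given at the end. Of 11 hepatocyte markers, only KRT8, KRT18 and at a low level HNF4A were seen in every library, and ALB, AFP, APOA1, APOB, TTR and FGB had no count, so these defining hepatocyte transcripts were absent from the counts. Of 10 fibroblast and smooth muscle markers, MYOCD, PDGFRA and COL1A2 had no count in any library and MYH11 stayed under 1 CPM, while the summed level of the list was 45.7 to 50.2 FPKM (fragments scaled for gene length and depth) in shTFAM and 30.9 to 44.0 FPKM in shCtrl. Its members SMTN, PDGFRB and DCN were higher in shTFAM by 1.29, 1.69 and 2.95 log2 units, with edgeR adjusted p 0.0111, 0.000721 and 0.00276. In bulk RNA, more cells of a type and more RNA per cell cannot be told apart, and the part of these markers in the results below was not tested. Of 6 endothelial and leukocyte markers, PTPRC and CD3E had no count, and CD68 made most of a summed level of 12.7 to 17.7 FPKM in shTFAM and 4.65 to 6.71 FPKM in shCtrl.

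The single comparison asks how these genes differ when TFAM is reduced. Of the 40 members, 12 rose in shTFAM, none fell, 21 did not pass and 7 were too low to test. The test was edgeR's quasi-likelihood test over the 14708 rows that averaged 0.5 FPKM or more, at an adjusted p of 0.05. The 12 made 36.4% of the 33 members tested, against 11.3% of all tested rows that were higher and 6.59% that were lower, 17.9% in all. Because the list was chosen with earlier results of these data known, these shares are a description and not a test of the list. The risen genes were FHL1, JUNB, FLNA, TPM1, CNN3, ACTN4, TAGLN2, TMSB10, CALD1, FSCN1, ACTN1 and PDLIM1, by 0.55 to 1.26 log2 units. The median log2 fold change of the 33 was 0.55, against -0.015 over all tested rows. Groups did not overlap in 20 members with shTFAM above and in FHL3 with shTFAM below, against 22.1% and 20.1% of tested rows, 42.2% in all. Without shCtrl 2 the count fell to 6 risen members, and without shCtrl 3 it stayed at 12, the same genes, with FOSB lower as well. Of the 14708 rows, 1661 were higher with all libraries, 843 without shCtrl 2 and 1332 without shCtrl 3. The median log2 fold change of the 33 members was 0.55 without shCtrl 2 and 0.44 without shCtrl 3. Levels spanned a wide range. TMSB10 was the highest by level per length, at a mean of 2775 FPKM in shTFAM and 1942 FPKM in shCtrl. Below it FLNA had 205 FPKM in shTFAM and 116 in shCtrl, and TAGLN2 had 195 in shTFAM and 133 in shCtrl. The order of FLNA and TAGLN2 differed between the groups in deposited FPKM only. It depends on the length each level is divided by, and their longest coding transcripts in GENCODE 29 are 8516 and 1604 bases.

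**Figure D1:**
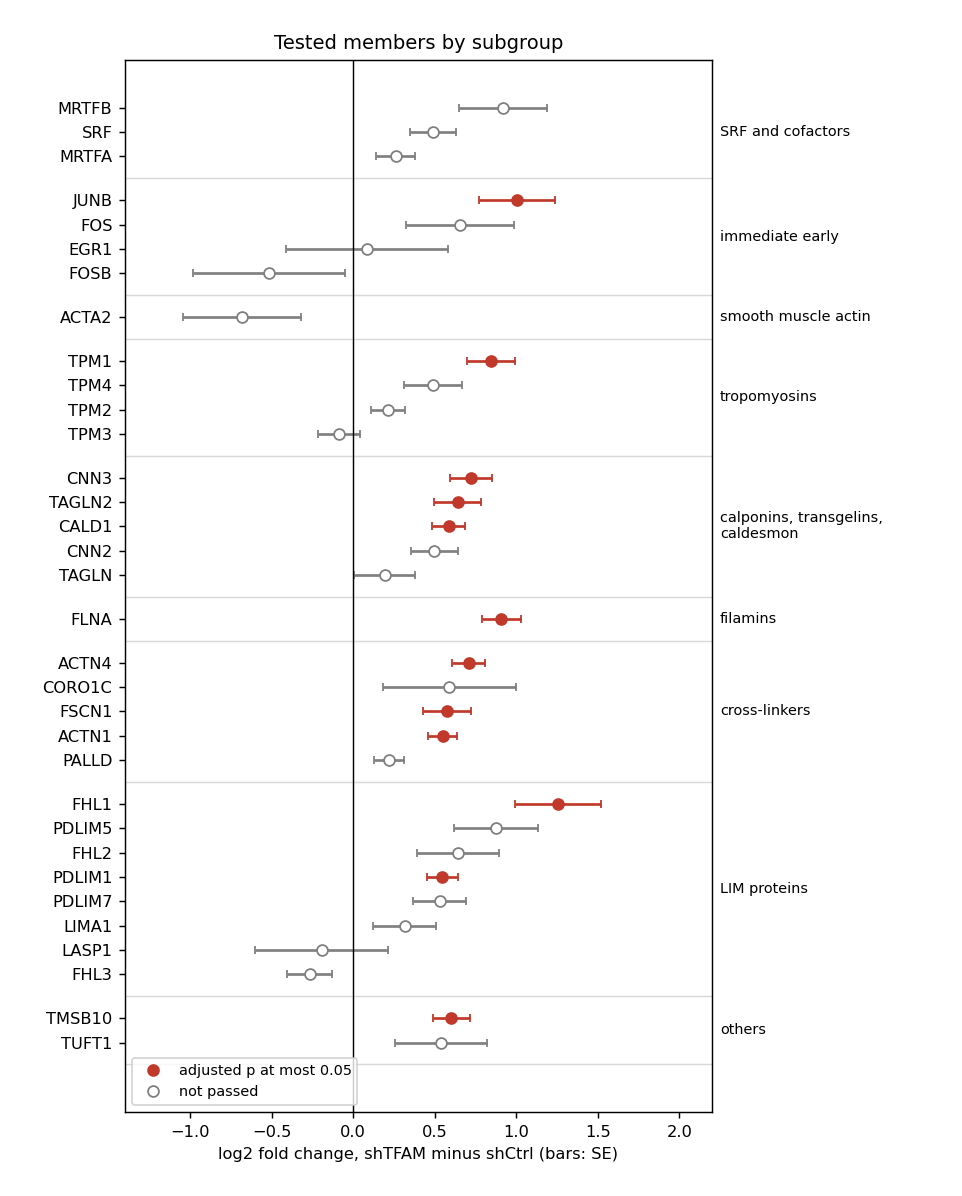
Log2 fold change of the 33 tested members (x axis, shTFAM minus shCtrl), grouped by role down the page; points are edgeR estimates, bars their SE, and filled points passed an adjusted p of 0.05. The 12 filled points lie between 0.55 and 1.26, and 5 open points lie below 0.

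SRF (ENSG00000112658) and its cofactors MRTFA (ENSG00000196588) and MRTFB (ENSG00000186260) had positive fold changes that did not pass the test. SRF stood at 85.04, 69.7 and 94.3 CPM in the shTFAM libraries, against 62.0, 62.8 and 52.6 CPM in the shCtrl libraries. All shTFAM libraries were above all shCtrl libraries for this gene, on chromosome 6 from 43171269 to 43181506 (hg38, plus strand). The difference was short of the threshold, with a log2 fold change of 0.49 (SE 0.14, edgeR adjusted p 0.052), and passed without shTFAM 2 (edgeR adjusted p 0.0413) and in DESeq2 (adjusted p 0.017). Without any other single library SRF did not pass (edgeR adjusted p 0.102 to 0.134). Its log2 fold change was 0.40 without shCtrl 3 and 0.31 without shCtrl 3 and shTFAM 3. MRTFB, the cofactor on chromosome 16, was the least even of the 3. For MRTFB, the shTFAM libraries gave 113, 61.7 and 126 CPM and the shCtrl libraries 63.5, 50.5 and 44.8 CPM. Its shTFAM 2 library was at the level of shCtrl 1, far below the other shTFAM libraries, and the groups overlapped. The estimate was a log2 fold change of 0.92 (SE 0.27, edgeR adjusted p 0.0558), with edgeR adjusted p 0.0164 without shTFAM 2 and DESeq2 adjusted p 0.0049. Without any other single library MRTFB did not pass (edgeR adjusted p 0.0784 to 0.155). In shTFAM, MRTFA was counted at 68.2, 53.6 and 58.2 CPM, and in shCtrl at 46.8, 49.8 and 53.7 CPM. The groups overlapped for MRTFA, with a log2 fold change of 0.26 (SE 0.121, edgeR adjusted p 0.176), and 0.14 without shTFAM 1. Its row, with 16201 counts in all, overlaps that of SGSM3 on the opposite strand, with 17701, and the labels do not state whether counting used strand.

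Immediate early genes, whose transcripts appear within minutes of a stimulus, gave 1 riser among the 4 tested of 5, or 25%. Over all tested rows 11.3% were higher. JUNB, a subunit of the AP-1 transcription factor, rose. JUNB had 321, 279 and 393 CPM in shTFAM 1 to 3, against 197, 187 and 111 CPM in shCtrl 1 to 3. Every shTFAM library was above every shCtrl library, with means of 331 ± 57.6 CPM in shTFAM and 165 ± 46.9 CPM in shCtrl (SD, n = 3 each) and a log2 fold change of 1.00 (SE 0.233, edgeR adjusted p 0.0288). That call ended without shTFAM 1, shTFAM 3 or shCtrl 2 (edgeR adjusted p 0.0643, 0.0857 and 0.0604), and held without shCtrl 3 with a log2 fold change of 0.78 (edgeR adjusted p 0.028). FOS, another AP-1 subunit, was also above in all shTFAM libraries without passing. FOS stood at 121, 105 and 114 CPM in the shTFAM libraries, against 86.1, 94.4 and 35.3 CPM in the shCtrl libraries. Library shCtrl 3 was far below the rest, with a log2 fold change of 0.65 (SE 0.331, edgeR adjusted p 0.207), and the log2 fold change was 0.32 without that library (edgeR adjusted p 0.0975). EGR1, a zinc finger transcription factor whose promoter is printed above, overlapped between groups. For EGR1, the shTFAM libraries gave 190.1, 83.6 and 119 CPM and the shCtrl libraries 162, 163 and 45.2 CPM. Its log2 fold change of 0.09 had an SE of 0.497 and an edgeR adjusted p of 0.924, and turned to -0.32 without shCtrl 3 (edgeR adjusted p 0.537), to -0.30 without shTFAM 1 (0.737) and to -0.05 when libraries were scaled to counts outside mitochondrial DNA (0.951). FOSB, the scarcest tested member of this group, had a negative estimate. In shTFAM, FOSB was counted at 3.8, 3.995 and 4.9 CPM, and in shCtrl at 8.32, 7.7 and 2.15 CPM. With all libraries it did not pass, with a log2 fold change of -0.52 (SE 0.467, edgeR adjusted p 0.476), and without shCtrl 3 it was lower in shTFAM by a log2 fold change of -0.93 (edgeR adjusted p 0.0335). The FOSB row, with 1508 counts over the 6 libraries, overlaps that of ERCC1 on the opposite strand, with 8623, and reads could be shared if strand was ignored in counting. EGR3 had at most 13 counts in a library and was not tested.

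The library shCtrl 3 was the lowest of the shCtrl libraries for all 4 tested immediate early members. It stood at 0.279 of the mean of shCtrl 1 and 2 for EGR1, 0.391 for FOS, 0.268 for FOSB and 0.58 for JUNB. The same library was lowest for 13 of 19 tested immediate early genes outside the list (68.4%), against 40.1% of all tested rows. Among the remaining members it was also low for ACTA2 (0.45 of the mean of the other shCtrl libraries), FHL1 (0.518), TUFT1 (0.549) and FHL2 (0.559), and high for PDLIM5 (1.38), FSCN1 (1.36), TAGLN2 (1.32) and TPM3 (1.31). The part of this library's state in these results was not tested beyond the values given without it.

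**Figure D2:**
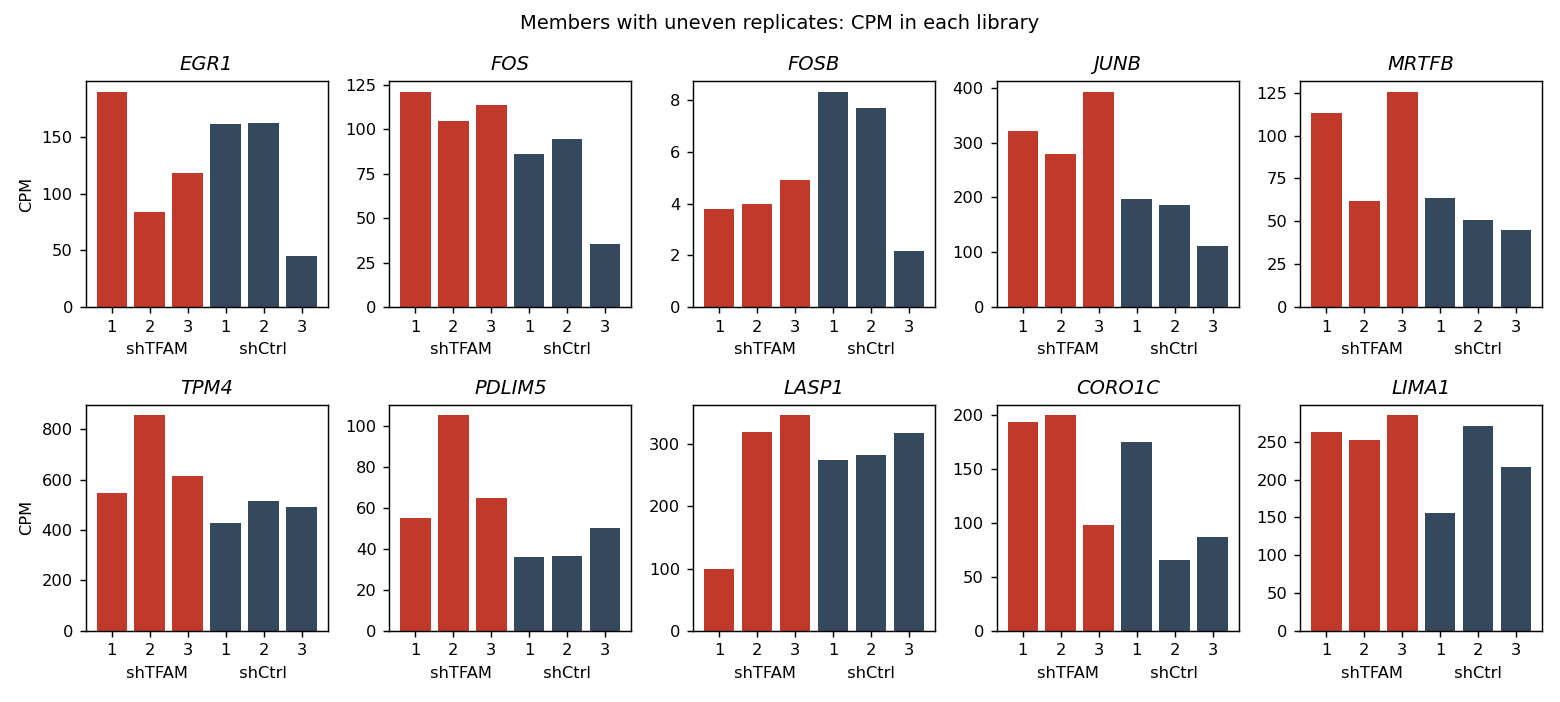
CPM (y axis, from 0) in each library (x axis, shTFAM 1 to 3 in red, then shCtrl 1 to 3 in blue) for 10 members whose replicates were uneven. EGR1, FOS, FOSB and JUNB are lowest among shCtrl in library 3, LASP1 falls to 99.7 CPM in shTFAM 1 alone, and CORO1C differs within each group.

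Smooth muscle transcripts of the list were scarce. ACTA2, the smooth muscle alpha-actin that marks activated stellate cells and myofibroblasts, was not higher in shTFAM. ACTA2 had 1.28, 1.47 and 1.71 CPM in shTFAM 1 to 3, against 3.11, 2.75 and 1.32 CPM in shCtrl 1 to 3. The groups overlapped through shCtrl 3, with a log2 fold change of -0.68 (SE 0.362, edgeR adjusted p 0.226). The ACTA2 row, with 568 counts in all, overlaps those of FAS and STAMBPL1 on the opposite strand, with 5270 and 5999. Reads could be shared if strand was ignored in counting, which the labels do not state. ACTG2, the gamma smooth muscle actin, had 8, 36 and 48 counts in shTFAM and 19, 0 and 18 in shCtrl. LMOD1, a leiomodin that nucleates actin in smooth muscle, had 31, 22 and 58 counts in shTFAM and 59, 82 and 46 in shCtrl. Neither was tested, and without the filter both stayed above the threshold (edgeR adjusted p 0.557 and 0.303).

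Tropomyosins, coiled-coil proteins that lie along the filament and govern access of myosin and cofilin, differed from one another. TPM1 (ENSG00000140416), on chromosome 15 from 63042632 to 63071915 (hg38, plus strand), rose. TPM1 stood at 124, 127 and 154 CPM in the shTFAM libraries, against 83.2, 80.2 and 61.7 CPM in the shCtrl libraries. The groups were well apart, with means of 135 ± 16.5 CPM in shTFAM and 75.0 ± 11.7 CPM in shCtrl (SD, n = 3 each) and a log2 fold change of 0.84 (SE 0.149, edgeR adjusted p 0.0122), and no single library ended the call when left out (edgeR adjusted p 0.0196 to 0.0393). TPM4 was the most counted tropomyosin and was above in every shTFAM library. For TPM4, the shTFAM libraries gave 546, 855 and 614 CPM and the shCtrl libraries 427, 517 and 493 CPM. Library shTFAM 2 was far above the other shTFAM libraries, with a log2 fold change of 0.49 (SE 0.178, edgeR adjusted p 0.1), and the estimate was 0.28 without shTFAM 2 (edgeR adjusted p 0.212). In shTFAM, TPM2 was counted at 319.8, 345 and 370.2 CPM, and in shCtrl at 287, 277 and 329 CPM. TPM2 overlapped between groups, with a log2 fold change of 0.21 (SE 0.106, edgeR adjusted p 0.198). TPM3 had 213, 233 and 209 CPM in shTFAM 1 to 3, against 207, 212 and 275 CPM in shCtrl 1 to 3. TPM3 also overlapped, with a log2 fold change of -0.09 (SE 0.13, edgeR adjusted p 0.681), and its sign turned without shCtrl 3 (0.05, edgeR adjusted p 0.734).

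As a share of summed tropomyosin FPKM within a library, TPM1 made up 5.35, 4.55 and 5.84% in shTFAM, against 4.18, 3.91 and 2.69% in shCtrl. TPM3 made up 8.37, 7.61 and 7.21% in shTFAM, against 9.49, 9.42 and 10.9% in shCtrl. Neither pair of ranges overlapped. TPM2 held 53.7 to 61.0% in shTFAM and 58.5 to 62.4% in shCtrl, and TPM4 26.0 to 34.2% and 23.9 to 28.1%, with overlap in both. These shares depend on the length each level is divided by. The ratio of counts to FPKM showed that the authors' length for TPM1 was 4.34 times, for TPM3 4.76 times and for TPM4 3.89 times that of TPM2, whereas the longest coding transcripts in GENCODE 29 are 3957, 3149, 2666 and 1392 bases for TPM1, TPM3, TPM4 and TPM2. Divided by those transcripts, TPM4 held 38.3 to 47.5% in shTFAM and 35.3 to 40.4% in shCtrl, and was above TPM2 in shTFAM 2 alone. The TPM1 share, 4.75 to 6.46% in shTFAM and 2.97 to 4.65% in shCtrl, kept its gap under that length, while as a plain share of counts it overlapped, at 8.12 to 11.4% and 5.32 to 8.29%. Tropomyosin genes make several protein isoforms by splicing and alternative starts, which values per gene do not separate.

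**Figure D3:**
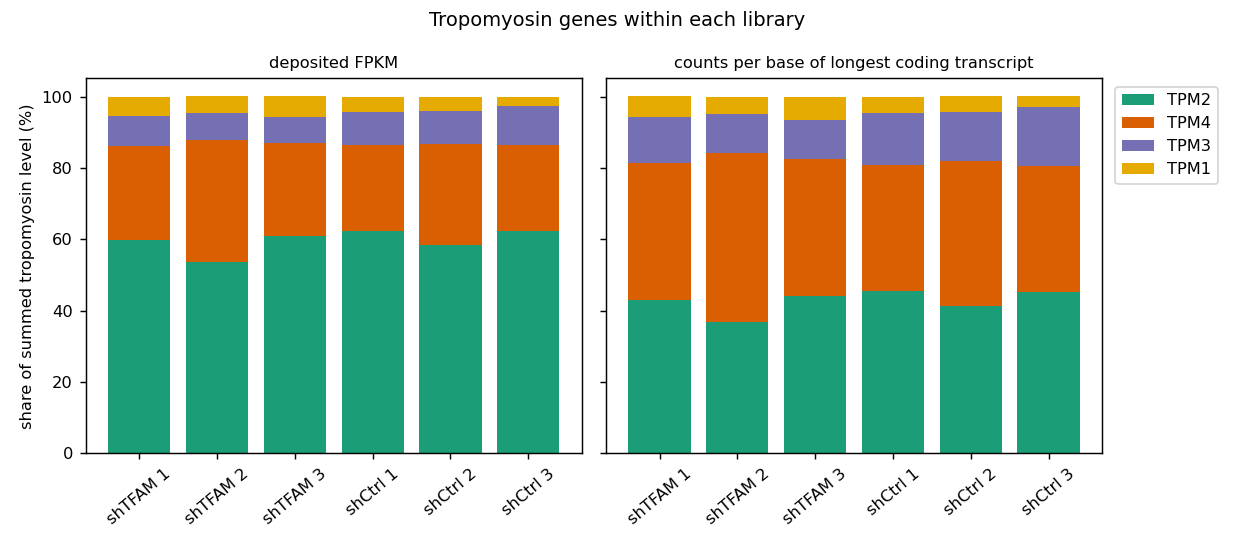
Share of each tropomyosin gene in the summed tropomyosin level (y axis, percent) in every library (x axis), with deposited FPKM on the left and counts per base of the longest coding transcript on the right. TPM2 holds 53.7 to 62.4% by FPKM, TPM1 is larger in each shTFAM library than in any shCtrl library in both panels, and the order of TPM2 and TPM4 differs in shTFAM 2 on the right.

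Calponins, transgelins and caldesmon bind along filaments and restrain actomyosin. Of these 6 genes, 5 were tested and 3 rose, or 60% of those tested, against 11.3% of all tested rows. CALD1, caldesmon, had one of the tightest shTFAM groups. CALD1 stood at 199, 212 and 213 CPM in the shTFAM libraries, against 127, 135 and 154 CPM in the shCtrl libraries. The groups did not overlap, with means of 208 ± 7.79 CPM in shTFAM and 139 ± 13.9 CPM in shCtrl (SD, n = 3 each) and a log2 fold change of 0.58 (SE 0.101, edgeR adjusted p 0.0114), and of the single libraries only shCtrl 2 ended the call when left out (edgeR adjusted p 0.0507). The log2 fold change without shCtrl 2 was 0.56. CNN3, the acidic calponin of non-muscle cells, rose. For CNN3, the shTFAM libraries gave 49.0, 54.8 and 65.3 CPM and the shCtrl libraries 34.6, 35.5 and 32.3 CPM. It was higher with means of 56.3 ± 8.25 CPM in shTFAM and 34.1 ± 1.65 CPM in shCtrl (SD, n = 3 each) and a log2 fold change of 0.72 (SE 0.129, edgeR adjusted p 0.0126), and held whichever library was left out (edgeR adjusted p 0.0165 to 0.0444). CNN2, whose promoter is printed above, was above in every shTFAM library but missed the threshold. In shTFAM, CNN2 was counted at 53.6, 43.5 and 61.2 CPM, and in shCtrl at 38.9, 34.6 and 38.5 CPM. The estimate was a log2 fold change of 0.50 (SE 0.143, edgeR adjusted p 0.0526), with edgeR adjusted p 0.036 without shTFAM 2 and DESeq2 adjusted p 0.0195. Without any other single library CNN2 did not pass (edgeR adjusted p 0.0884 to 0.149). CNN1, the smooth muscle calponin, had 5 counts in shTFAM 2, 7 in shCtrl 2 and none elsewhere. TAGLN2, the transgelin of non-muscle cells, was by far the more abundant transgelin. TAGLN2 had 514, 506 and 606 CPM in shTFAM 1 to 3, against 312, 316 and 415 CPM in shCtrl 1 to 3. It rose with means of 542 ± 55.4 CPM in shTFAM and 348 ± 58.0 CPM in shCtrl (SD, n = 3 each) and a log2 fold change of 0.64 (SE 0.142, edgeR adjusted p 0.0251). That call ended without any 1 library other than shCtrl 3, with edgeR adjusted p 0.0556, 0.0537 and 0.0723 without shTFAM 1, 2 and 3 and 0.0822 and 0.0849 without shCtrl 1 and 2. The log2 fold change was then 0.55 to 0.69. TAGLN stood at 8.58, 8.46 and 6.94 CPM in the shTFAM libraries, against 8.19, 6.1 and 6.69 CPM in the shCtrl libraries. TAGLN, the smooth muscle transgelin and a textbook MRTF target, overlapped between groups, with a log2 fold change of 0.19 (SE 0.186, edgeR adjusted p 0.504), 0.10 without shCtrl 2 and 0.31 without shCtrl 1. The TAGLN row, with 2183 counts in all, overlaps that of PCSK7 on the opposite strand, with 18386. Reads could be shared if strand was ignored in counting.

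Filamins are long dimers that cross filaments at wide angles and tie them to integrins. FLNA (ENSG00000196924), on the X chromosome from 154348524 to 154374638 (hg38, minus strand), had the smallest p of the list. For FLNA, the shTFAM libraries gave 2488, 2468 and 3079 CPM and the shCtrl libraries 1424, 1407 and 1447 CPM. Every shTFAM library was far above every shCtrl library, with means of 2678 ± 347 CPM in shTFAM and 1426 ± 20.02 CPM in shCtrl (SD, n = 3 each) and a log2 fold change of 0.91 (SE 0.118, edgeR adjusted p 0.00465), and the call held whichever library was left out (edgeR adjusted p 0.0081 to 0.0253). FLNC, the muscle filamin, had no count in any library.

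Among cross-linkers and scaffolds of filament bundles and networks, 3 of 5 genes, all tested, rose. That is 60%, where 11.3% of all tested rows were higher. ACTN4 and ACTN1 encode the alpha-actinins of non-muscle cells, which join filaments in stress fibres and at adhesions. In shTFAM, ACTN4 was counted at 724, 676 and 783 CPM, and in shCtrl at 428, 429 and 478 CPM. ACTN1 had 325, 292 and 332 CPM in shTFAM 1 to 3, against 208, 221 and 220.0 CPM in shCtrl 1 to 3. Both were above in all shTFAM libraries. ACTN4 had means of 727 ± 53.5 CPM in shTFAM and 445 ± 28.7 CPM in shCtrl (SD, n = 3 each) and a log2 fold change of 0.71 (SE 0.0997, edgeR adjusted p 0.00617), and ACTN1 had means of 317 ± 21.2 CPM in shTFAM and 216 ± 7.06 CPM in shCtrl (SD, n = 3 each) and a log2 fold change of 0.55 (SE 0.0891, edgeR adjusted p 0.00939), and neither call ended when 1 library was left out (edgeR adjusted p up to 0.0319 and 0.0462). ACTN4 held 79.5 to 80.4% of summed alpha-actinin FPKM in shTFAM and 77.2 to 79.1% in shCtrl. This share also depends on the length used. By counts per base of the longest coding transcript it was 62.9 to 64.2% in shTFAM and 59.7 to 62.3% in shCtrl. As a plain share of counts it was 69.0 to 70.2% in shTFAM and 66.0 to 68.5% in shCtrl. FSCN1 encodes fascin, which packs filaments into the tight bundles of filopodia and invadopodia. FSCN1 stood at 424, 417 and 475 CPM in the shTFAM libraries, against 276, 251 and 357 CPM in the shCtrl libraries. It rose with means of 439 ± 31.7 CPM in shTFAM and 295 ± 55.8 CPM in shCtrl (SD, n = 3 each) and a log2 fold change of 0.57 (SE 0.146, edgeR adjusted p 0.0375), a call that ended without any 1 library other than shCtrl 3 (edgeR adjusted p 0.08, 0.077 and 0.103 without shTFAM 1, 2 and 3, and 0.113 and 0.105 without shCtrl 1 and 2) and in limma (adjusted p 0.0559). Without each of those libraries in turn, the log2 fold change was 0.47 to 0.61. The FSCN1 call also ended with no filter, library totals, totals outside mitochondrial DNA and no abundance trend (edgeR adjusted p 0.058, 0.0575, 0.0533 and 0.0644). For PALLD, the shTFAM libraries gave 241.3, 236 and 273 CPM and the shCtrl libraries 212, 221 and 211 CPM. PALLD, the stress fibre scaffold palladin, whose row overlaps those of CBR4 and DDX60L on the opposite strand, was a little above in every shTFAM library without passing, with a log2 fold change of 0.22 (SE 0.0914, edgeR adjusted p 0.137). CORO1C, a coronin that acts at branched networks, was uneven in both groups. In shTFAM, CORO1C was counted at 194, 199.9 and 98.6 CPM, and in shCtrl at 175, 65.6 and 86.9 CPM. Libraries shTFAM 1, shTFAM 2 and shCtrl 1 were well above the other 3, and the estimate was a log2 fold change of 0.59 (SE 0.408, edgeR adjusted p 0.346). It was 1.10 without shCtrl 1 and 0.33 without shCtrl 2.

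LIM domain proteins sit on stress fibres and at adhesions. Of these 9 genes 8 were tested and 2 rose (25% of those tested), beside 11.3% of all tested rows. FHL1 had the largest log2 fold change among the called members. FHL1 had 58.9, 54.8 and 45.1 CPM in shTFAM 1 to 3, against 28.0, 24.8 and 13.7 CPM in shCtrl 1 to 3. It was above in every shTFAM library, with means of 52.9 ± 7.1 CPM in shTFAM and 22.2 ± 7.52 CPM in shCtrl (SD, n = 3 each) and a log2 fold change of 1.26 (SE 0.263, edgeR adjusted p 0.0211), and the call ended without shTFAM 1, shTFAM 2 or shCtrl 2 (edgeR adjusted p 0.0594, 0.0606 and 0.0527). The log2 fold change was then 1.16, 1.23 and 1.34. Without shCtrl 3 the FHL1 call held at a smaller log2 fold change of 0.995 (edgeR adjusted p 0.016). PDLIM1, which docks to alpha-actinin, rose. PDLIM1 stood at 125, 116 and 134 CPM in the shTFAM libraries, against 80.9, 88.4 and 87.3 CPM in the shCtrl libraries. Its values were tight in both groups, with means of 125 ± 9.09 CPM in shTFAM and 85.5 ± 4.02 CPM in shCtrl (SD, n = 3 each) and a log2 fold change of 0.55 (SE 0.0961, edgeR adjusted p 0.0121), and edgeR adjusted p 0.0503 without shCtrl 1. The log2 fold change without shCtrl 1 was 0.50. FHL2, an SRF target and cofactor, was above in every shTFAM library but did not pass. For FHL2, the shTFAM libraries gave 100.045, 68.5 and 93.5 CPM and the shCtrl libraries 63.5, 67.6 and 36.6 CPM. The lowest shTFAM and highest shCtrl libraries nearly touched, with a log2 fold change of 0.64 (SE 0.251, edgeR adjusted p 0.119), and 0.40 without shCtrl 3. FHL3 was the only tested member with every shTFAM library below every shCtrl library. In shTFAM, FHL3 was counted at 11.5, 10.6 and 10.8 CPM, and in shCtrl at 12.1, 13.1 and 14.3 CPM. The difference did not pass, with a log2 fold change of -0.27 (SE 0.138, edgeR adjusted p 0.217).

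PDLIM5 and PDLIM7 are further alpha-actinin or tropomyosin binding LIM proteins. PDLIM5 had 55.2, 105 and 64.8 CPM in shTFAM 1 to 3, against 36.2, 36.4 and 50.0 CPM in shCtrl 1 to 3. Library shTFAM 2 was the highest, with a log2 fold change of 0.88 (SE 0.258, edgeR adjusted p 0.0567), edgeR adjusted p 0.0485 without shTFAM 1 and a log2 fold change of 0.55 without shTFAM 2. Without any single library other than shTFAM 1, PDLIM5 did not pass (edgeR adjusted p 0.0642 to 0.149). PDLIM7 stood at 66.9, 62.6 and 89.2 CPM in the shTFAM libraries, against 56.2, 50.6 and 44.7 CPM in the shCtrl libraries. PDLIM7 was above in every shTFAM library, with a log2 fold change of 0.53 (SE 0.162, edgeR adjusted p 0.0627). DESeq2 called both (adjusted p 0.00669 and 0.0225). LIMA1, also called EPLIN, stabilises filaments at junctions. For LIMA1, the shTFAM libraries gave 263, 252 and 285 CPM and the shCtrl libraries 155, 271 and 217 CPM. Library shCtrl 1 was the lowest and the groups overlapped, with a log2 fold change of 0.32 (SE 0.192, edgeR adjusted p 0.285). That estimate was 0.12 without shCtrl 1 and 0.52 without shCtrl 2. LASP1, an adaptor of focal adhesions, showed the widest spread within shTFAM among the 33 tested members. In shTFAM, LASP1 was counted at 99.7, 319 and 346 CPM, and in shCtrl at 274, 282 and 318 CPM. The highest shTFAM library was 3.47 times the lowest, shTFAM 1, and the shCtrl libraries differed by at most 1.16 times. Its log2 fold change of -0.19 (SE 0.407, edgeR adjusted p 0.774) turned to 0.18 without shTFAM 1 (edgeR adjusted p 0.347). TGFB1I1, which encodes the adhesion protein Hic-5, was too low for the main test, with 58, 39 and 83 counts in shTFAM, against 16, 4 and 4 in shCtrl. All shTFAM libraries were above, and without the filter it was higher by 2.78 log2 units (SE 0.671, edgeR adjusted p 0.0477), or 2.79 with edgeR's own filter (adjusted p 0.0334).

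A further 3 members fall outside these families. TMSB10 encodes a small peptide that binds actin monomers, and rose. TMSB10 had 1433, 1483 and 1791 CPM in shTFAM 1 to 3, against 1012, 1033 and 1059 CPM in shCtrl 1 to 3. It was above in every shTFAM library, with means of 1569 ± 194 CPM in shTFAM and 1035 ± 23.3 CPM in shCtrl (SD, n = 3 each) and a log2 fold change of 0.60 (SE 0.113, edgeR adjusted p 0.0151), and the call ended without shCtrl 1 or shCtrl 2 (edgeR adjusted p 0.0567 and 0.0572). The log2 fold change was then 0.57 and 0.60. TUFT1 stood at 34.1, 37.6 and 55.7 CPM in the shTFAM libraries, against 36.1, 32.7 and 18.9 CPM in the shCtrl libraries. TUFT1, tuftelin, overlapped between groups, with a log2 fold change of 0.54 (SE 0.281, edgeR adjusted p 0.218). The estimate was 0.29 without shTFAM 3, 0.29 without shCtrl 3 and 0.06 without both. FILIP1L, a filamin-interacting relative of FILIP1, had 2 counts in shCtrl 3 and none elsewhere, although CMSS1, which overlaps it on the opposite strand, held 13819 counts over the 6 libraries.

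**Figure D4:**
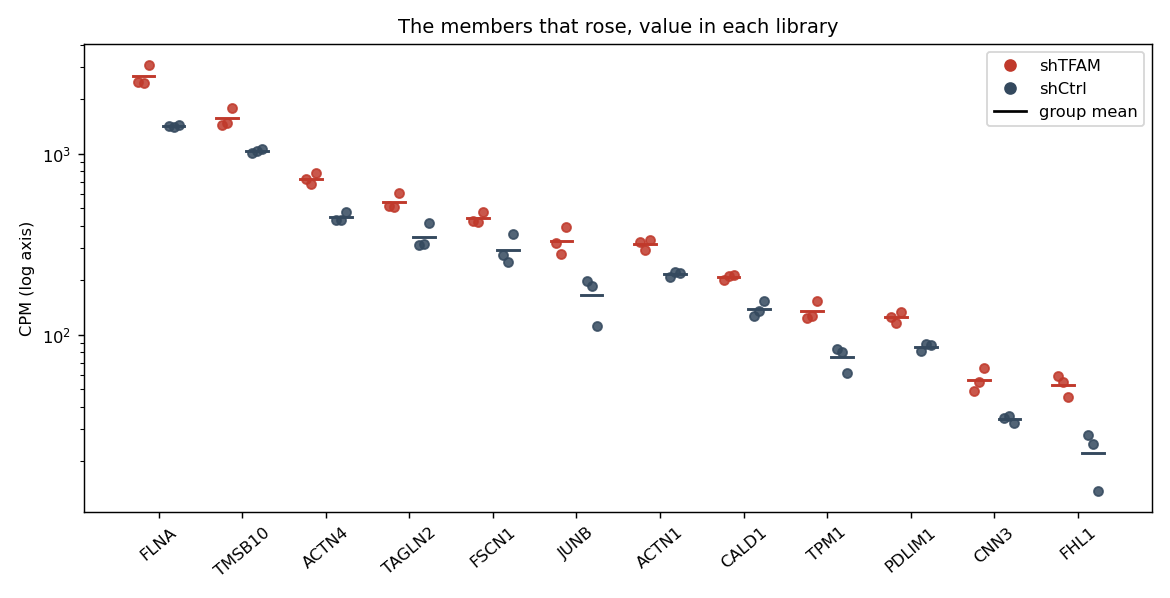
CPM (y axis, log scale) of the 12 members that rose, in each shTFAM library (red) and shCtrl library (blue), with group means as lines. In each of the 12 every red point is above every blue point, from FLNA at 2468 to 3079 CPM in shTFAM down to FHL1 at 45.1 to 58.9 CPM in shTFAM.

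Exact CArG boxes were found in a minority of the members. RefSeq promoters were found for 37 members, and 11 of these (29.7%) had a box in at least 1 of their annotated promoters, 13 of 80 promoters (16.2%). Of all RefSeq promoters, 454 of 35116 (1.29%) held one, and of all genes with such a promoter, 438 of 27305 (1.6%). The list includes genes chosen as known SRF targets, so its higher share is a description and not a test. Many members have more than 1 annotated start, 12 for FHL1, which gives more chances of a match. Of the 11, FLNA, ACTN1 and FHL1 rose, SRF, EGR1, TPM4, CNN2 and FHL2 did not pass, and ACTG2, TGFB1I1 and FILIP1L were not tested. The other 9 risen members had no exact match in these windows or no promoter in the table. FHL2 held a box in 3 of its 4 promoters, and 2 of these windows share the same box. A match describes letters, not binding. The boxes of 4 further members are printed with 10 bases on each side, in the direction of the gene, because these genes are tested members of the tropomyosin, alpha-actinin and LIM families.
TPM4 (chr19:16067355-16067384, plus strand): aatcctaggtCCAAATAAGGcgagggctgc
ACTN1 (chr14:68977718-68977747, minus strand): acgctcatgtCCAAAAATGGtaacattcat
FHL1 (chrX:136196911-136196940, plus strand): ccttggatcaCCTAAAATGGttaagaattt
FHL2 (chr2:105399091-105399120, minus strand): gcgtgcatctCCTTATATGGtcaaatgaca
The first base of the box lay 173 bases before the annotated start in TPM4, 171 in ACTN1, 126 in FHL1 and 59 in FHL2, against 30 and 10 in SRF and 105 and 83 in EGR1. Among all tested genes matched to the table, 29 of 138 with a box (21.0%) and 1194 of 9290 without one (12.9%) were higher in shTFAM. With the members left out, 26 of 130 genes with a box were higher and 5 (3.85%) were lower. The nearest comparison is the 12.9% higher among matched genes without a box, from which members were not left out. The share lower among matched genes without a box was not counted. The 11.3% higher and 6.59% lower of all tested rows also cover rows not matched to the table. These shares are a description across genes, which are not independent replicates.

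**Figure D5:**
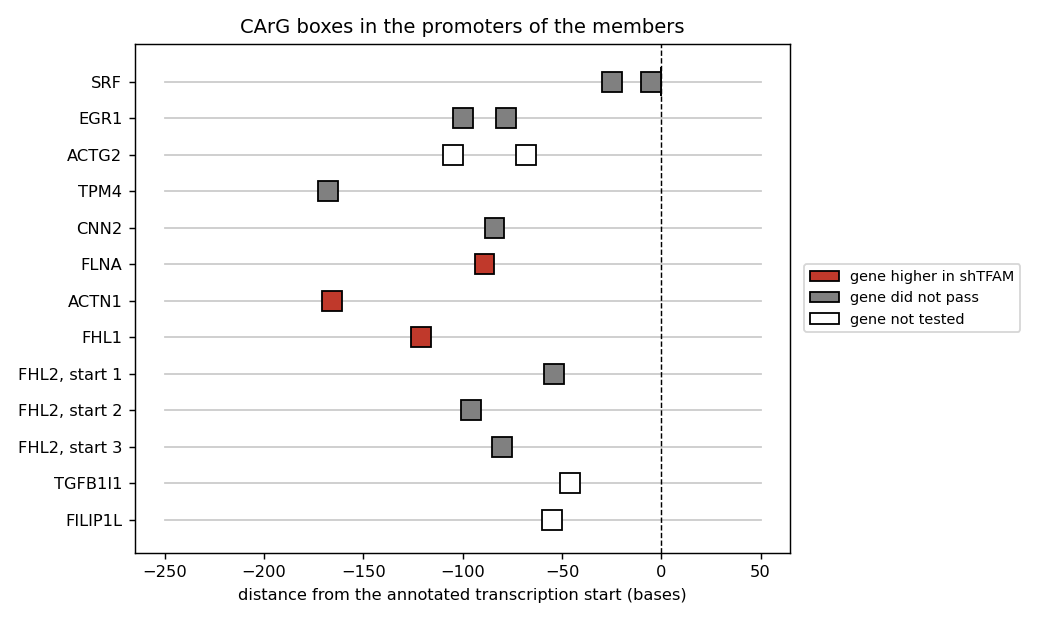
Position of each exact CArG box (box 10 bases wide) relative to the annotated transcription start (x axis, bases; dashed line at the start) in the 13 member promoters that hold one. Red marks genes higher in shTFAM, grey those that did not pass and white those not tested, and all boxes lie before the start.

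Other genes of the pathway were read from lists that do not include the members. These lists too were chosen with earlier results of these data known. Of 4 other SRF partners, the ternary complex factors ELK1, ELK3 and ELK4 did not pass and MYOCD, the smooth muscle cofactor, had no count.

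Of 22 immediate early genes outside the list, 7 rose, none fell, 12 did not pass and 3 were not tested, against 11.3% higher and 6.59% lower over all tested rows. FOSL2, an AP-1 subunit, KLF6 and DUSP5, a phosphatase of nuclear ERK, had the smallest p. For FOSL2, the shTFAM libraries gave 252, 296 and 313 CPM and the shCtrl libraries 117, 129.9 and 129.5 CPM. In shTFAM, DUSP5 was counted at 46.7, 49.0 and 97.2 CPM, and in shCtrl at 11.7, 11.2 and 4.3 CPM. Both were above in all shTFAM libraries, with log2 fold changes of 1.19 and 2.83 (edgeR adjusted p 0.00225 and 0.00919), and KLF6 rose by 1.46 log2 units (0.00452).

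Of 21 other cytoskeletal targets of SRF, 10 rose, none fell, 9 did not pass and 2 were not tested, beside the same 11.3% and 6.59% of all tested rows. ITGA5, the alpha chain of the fibronectin receptor, had the smallest p among them. ITGA5 had 653, 733 and 1338 CPM in shTFAM 1 to 3, against 155, 159 and 121 CPM in shCtrl 1 to 3. The groups were far apart, with means of 908 ± 374 CPM in shTFAM and 145 ± 20.5 CPM in shCtrl (SD, n = 3 each) and a log2 fold change of 2.65 (SE 0.291, edgeR adjusted p 0.00317). The matricellular genes CCN1 and CCN2 rose by 1.04 and 1.61 log2 units (edgeR adjusted p 0.00438 and 0.0064). Of 32 paralogues or relatives of the members, 11 rose, none fell, 4 did not pass and 17 were not tested, where 11.3% of all tested rows were higher and 6.59% lower. TMSB4X, a close relative of TMSB10, rose as well. TMSB4X stood at 215, 208 and 227 CPM in the shTFAM libraries, against 83.0, 82.8 and 103 CPM in the shCtrl libraries. The groups did not overlap, with means of 217 ± 9.39 CPM in shTFAM and 89.7 ± 11.8 CPM in shCtrl (SD, n = 3 each) and a log2 fold change of 1.27 (SE 0.116, edgeR adjusted p 0.00223), beside 0.60 for TMSB10 with an SE of 0.113, and the difference between the genes was not tested. TMOD3, which caps the slow end of tropomyosin filaments, rose by 0.85 log2 units (edgeR adjusted p 0.00317). Genes of several of these families have near-identical copies or processed pseudogenes, and the labels do not state how shared reads were counted.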

How the data were processed

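RNA was isolated with TRIzol, selected for poly(A) and made into dUTP-marked, paired-end libraries, per the labels' protocols. The submitters' processing notes name cutadapt 1.9, HISAT2 2.0.4, StringTie 1.3.4d and Bowtie 0.12.2, and the builds hg38 and mm8. The counter, annotation and strand setting were not given in the sources used here. In 1 table the authors deposited a raw count and an FPKM value per gene and library, per the file headers. Groups came from the treatment label. The deposited counts were tested with edgeR 4.0.16 (quasi-likelihood, TMM, Benjamini-Hochberg, adjusted p of 0.05, R 4.3.3) over rows that averaged 0.5 FPKM or more. CPM are counts over TMM-scaled library sizes. Library totals ran from 43286024 to 61058282 counts, and the common biological coefficient of variation was 0.251. Alternatives were DESeq2 1.42.0, limma 3.58.1 on log2(FPKM + 1), other filters, other scalings, no abundance trend and leaving out libraries. The procedure was tested on simulated data. Promoters came from RefSeq (GRCh38.p14), searched for exact CArG boxes, and transcript lengths from GENCODE 29. The members and lists were chosen with earlier results of these data known. Besides the members, the genes named are the up to 3 called genes with the smallest p in each further list, the markers and TFAM, and some results under this rule are not reported here. No libraries agreed within sampling noise.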

Additional observations from a re-analysis of the deposited data

How the results depend on the processing

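No paired analysis was possible because the replicate numbers in the titles run on from shCtrl to shTFAM and are not shared. The main test called 2630 rows, 1661 higher and 969 lower, and 12 members higher. DESeq2 called 3850 rows and 18 members, adding SRF, MRTFB, CNN2, FHL2, PDLIM5 and PDLIM7. Leaving out 1 library gave 1148 to 2065 rows, 6 to 12 members higher and 0 to 1 lower, and leaving out shCtrl 3 and shTFAM 3 together gave 2003 rows, with 12 members higher and 1, FOSB, lower. Other settings gave 11 to 13 members higher and none lower. FSCN1 was the member lost under limma, no filter, library totals, totals outside mitochondrial DNA and no abundance trend. The split of rows was 1278 higher and 1337 lower in limma, 1353 and 1266 with library totals, 1198 and 1771 with totals outside mitochondrial DNA and 1466 and 1269 with quantile normalization. Totals outside mitochondrial DNA moved the median of all rows to -0.15, against -0.02 in the main test, and that of the tested members to 0.41, against 0.55.

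Signs turned for 3 members that did not pass. EGR1 (0.09) ran from -0.32 to 0.34 without 1 library, was -0.25 without shCtrl 3 and shTFAM 3 and -0.0502 with totals outside mitochondrial DNA. TPM3 (-0.09) ran from -0.17 to 0.05 without 1 library and was 0.0888 without shCtrl 3 and shTFAM 3. LASP1 (-0.19) ran from -0.48 to 0.18 without 1 library. The cause was not tested.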
